A study of Danio rerio with 4 samples.

Results

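The claudins are a family of tight junction membrane proteins, and their transcripts were followed in whole zebrafish embryos (Danio rerio) after knockdown of the RNA-binding protein Rbm14. Members were taken as every gene symbol of the deposited tables that starts with cldn, in lower case, and the TPM of a symbol's transcripts were summed. TPM is a transcript abundance corrected for length and scaled to a fixed total per library. This gave 31 of the 28697 gene symbols, covering 44 transcripts. The series asks how Rbm14 takes part in dorsoventral patterning. The groups were embryos injected with rbm14a and rbm14b morpholinos (4 ng of each) and embryos injected with a control morpholino (8 ng), both at 10 and at 24 hours post fertilization (hpf). A morpholino is an antisense oligomer that blocks translation or splicing of its target. Every embryo also received 300 pg of GFP mRNA and an injection volume of 2 nl at the one-cell stage, and each group is 1 library from 1 pool of 50 embryos. The labels name no strain, no uninjected group and no rescue group.

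Claudins span the membrane several times, and their outer loops join across neighbouring cells to form the strands of the tight junction. Some members seal the space between cells and others form pores for selected ions, so the set a tissue expresses sets how its epithelia leak. In the fish embryo the outer enveloping layer carries such junctions from early on, and skin, brain ventricles, vessels, gut, ear and kidney come to use their own members later.

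There was 1 library per group, so no difference below has a replicate check and no p-value was computed. TPM keeps no depth, and the depth of every library is unknown. Each pair of libraries was rescaled by a trimmed mean of log2 ratios. The subtracted shift was −0.25 for rbm14 over control at 10 hpf and 0.64 at 24 hpf, and for 24 over 10 hpf it was 0.37 in the rbm14 and −0.52 in the control libraries. Log2 ratios are of TPM + 0.5 after that step, which understates differences of low genes. A gene passed the size rule at 2-fold or more with a higher rescaled value of at least 5 TPM. As a check of the stage labels, 9 marker genes of the gastrula summed to 142 TPM in the rbm14 and 84.9 TPM in the control library at 24 hpf, against 2462 TPM (rbm14) and 2378 TPM (control) at 10 hpf. In whole embryos, fewer cells of a type and less RNA per cell cannot be told apart. The targeted gene rbm14a had 82.7 TPM in the rbm14 and 70.5 TPM in the control library at 24 hpf, against 254 TPM (rbm14) and 169.9 TPM (control) at 10 hpf. For rbm14b the 24 hpf values were 28.2 TPM (rbm14) and 21.0 TPM (control), against 19.3 TPM (rbm14) and 28.8 TPM (control) at 10 hpf. Neither gene's mRNA level measures a block of translation.

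More claudins stood at 5 TPM or more at 24 than at 10 hpf. Together the 31 genes took 0.302% of the TPM in the rbm14 and 0.216% in the control library at 24 hpf, against 0.320% (rbm14) and 0.246% (control) at 10 hpf. The log2 ratio of this total, rbm14 over control, was 0.49 at 24 hpf before rescaling and −0.15 after it. At 10 hpf it was 0.38 before rescaling and 0.63 after it, so the direction at 24 hpf depends on the scaling. At 24 hpf 18 members stood at 5 TPM or more in the rbm14 and also in the control library, while at 10 hpf there were 11 in the rbm14 and 13 in the control library. Over all genes, 8866 (rbm14) and 7000 (control) reached that level at 24 hpf, against 6305 (rbm14) and 7120 (control) at 10 hpf, so in the rbm14 libraries the number was larger at 24 hpf for all genes as well. The make-up also differed between the stages. The enveloping layer claudin cldne, needed for epiboly in zebrafish, made up 21.1% of claudin TPM in the rbm14 and 23.5% in the control library at 24 hpf, against 62.8% (rbm14) and 66.2% (control) at 10 hpf. The most abundant member in both 24 hpf libraries was cldnb, a claudin of the skin and the lateral line primordium, with 26.5% (rbm14) and 23.8% (control). The shares of claudin TPM do not depend on the rescaling, because numerator and denominator are both claudin TPM of the same library.

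**Figure D1:**
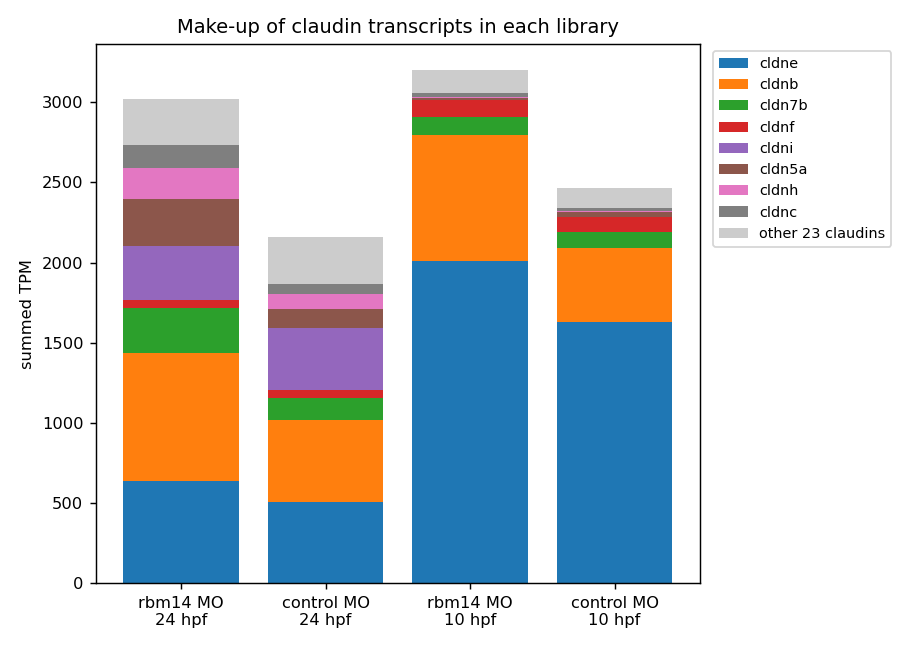
Summed TPM of the 31 claudins in each library, as bars from 0 with the 8 most abundant members coloured and the other 23 in light grey, the 8 being those with the highest level in any library. In both 24 hpf libraries cldne and cldnb fill 47.6% (rbm14 MO, morpholinos) and 47.3% (control MO) of the bar, while in both 10 hpf libraries they fill 87.2% (rbm14 MO) and 85.0% (control MO).

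Members were sorted by their control libraries into early, steady, late-rising and low claudins. An early gene had at least 5 TPM at 10 hpf and was 2-fold or more lower at 24 hpf, and a late-rising gene had at least 5 TPM at 24 hpf and was 2-fold or more higher than at 10 hpf. Steady genes had at least 5 TPM in a control library without such a difference. There were 3 early, 4 steady, 12 late-rising and 12 low members. Of the 19 members above the low class, 63.2% were late-rising, 21.1% steady and 15.8% early, and among 8784 genes classed in the same way the shares were 29.6%, 47.3% and 23.1%. No library precedes 10 hpf, so a maternal origin was not measured.

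The early class held cldne, cldnd and cldnd1b. The enveloping layer gene cldne stood at 637 TPM in the rbm14 and 506 TPM in the control library at 24 hpf, against 2013 TPM (rbm14) and 1632 TPM (control) at 10 hpf. The gene cldnd, known as a transcript of the oocyte, had 8.44 TPM (rbm14) and 4.83 TPM (control) at 24 hpf against 75.2 TPM (rbm14) and 26.1 TPM (control) at 10 hpf. Both were lower at 24 than at 10 hpf in both treatments. The rbm14 libraries, which took no part in the sorting, gave a log2 ratio of −2.02 for cldne and −3.44 for cldnd, against −1.16 and −1.82 in the controls. For cldnd1b, named for a claudin domain and not counted as a classical claudin, the values were 24.95 TPM (rbm14) and 8.76 TPM (control) at 24 hpf against 27.4 TPM (rbm14) and 35.2 TPM (control) at 10 hpf. Its stage ratio was −0.49 in the rbm14 libraries, short of the size rule, and −1.44 in the controls.

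The steady class was led by cldnb, with 801 TPM in the rbm14 and 514 TPM in the control library at 24 hpf, against 780.2 TPM (rbm14) and 462 TPM (control) at 10 hpf. The gene cldnf stood at 47.7 TPM (rbm14) and 47.5 TPM (control) at 24 hpf against 106 TPM (rbm14) and 96.0 TPM (control) at 10 hpf. Its stage ratio was −1.51 in the rbm14 libraries, past the size rule, and −0.49 in the controls, where it would pass as lower without rescaling (−1.01). Of 2 members of lower level, cldn12 had 27.9 TPM (rbm14) and 24.4 TPM (control) at 24 hpf against 16.8 TPM (rbm14) and 22.9 TPM (control) at 10 hpf. The other, cldn11b, a homolog of the claudin of mammalian myelin and testis, had 12.5 TPM (rbm14) and 6.69 TPM (control) at 24 hpf against 2.22 TPM (rbm14) and 5.48 TPM (control) at 10 hpf. In the rbm14 libraries cldn11b passed the rule as higher at 24 hpf (log2 ratio 1.93), and in the controls its ratio was 0.75.

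Late-rising claudins differed in their 10 hpf level, without a sharp border between members. Some members were close to 0 at 10 hpf. Among these, the skin claudin cldni had 337 TPM in the rbm14 and 387 TPM in the control library at 24 hpf, against 0.89 TPM (rbm14) and 0.86 TPM (control) at 10 hpf. The gene cldn1, whose mammalian homolog is needed for the water barrier of the skin, had 24.8 TPM (rbm14) and 79.3 TPM (control) at 24 hpf against 0.10 TPM (rbm14) and 0.20 TPM (control) at 10 hpf. For cldn15a, a homolog of the pore-forming claudin of the mammalian gut, the values were 13.6 TPM (rbm14) and 5.95 TPM (control) at 24 hpf against 0.10 TPM in both 10 hpf libraries. These genes were near 0 at 10 hpf, and the size of a fold against such levels depends on the pseudocount. The ear gene cldnj, which is needed for otolith formation in zebrafish, stood at 4.70 TPM (rbm14) and 6.74 TPM (control) at 24 hpf and was listed at 0 in both 10 hpf libraries. With 192 TPM (rbm14) and 92.8 TPM (control) at 24 hpf, cldnh had 0.74 TPM (rbm14) and 2.80 TPM (control) at 10 hpf. The endothelial claudin cldn5b had 71.2 TPM (rbm14) and 88.7 TPM (control) at 24 hpf against 2.86 TPM (rbm14) and 7.01 TPM (control) at 10 hpf. For both genes the 24 hpf libraries lay well above the 10 hpf libraries in both treatments, which for the controls follows from the sorting.

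Other late-rising members were already present at 10 hpf, though cldng stood below cldn5b in the control library. The neuroepithelial claudin cldn5a, needed for the seal of the zebrafish brain ventricle, stood at 294 TPM in the rbm14 and 117 TPM in the control library at 24 hpf, against 16.4 TPM (rbm14) and 30.1 TPM (control) at 10 hpf. The epithelial gene cldn7b had 280.5 TPM (rbm14) and 138 TPM (control) at 24 hpf against 113 TPM (rbm14) and 96.2 TPM (control) at 10 hpf. For cldnc the values were 142 TPM (rbm14) and 62.4 TPM (control) at 24 hpf against 27.7 TPM (rbm14) and 19.0 TPM (control) at 10 hpf. All of these had more TPM at 24 hpf in both treatments, which for the controls follows from the sorting. In the controls cldn7b, with a stage ratio of 1.04, lay just past the threshold and short of it without rescaling (0.52). With 58.3 TPM (rbm14) and 26.5 TPM (control) at 24 hpf, cldna had 9.54 TPM (rbm14) and 9.32 TPM (control) at 10 hpf. The claudin domain gene cldnd1a had 19.97 TPM (rbm14) and 21.6 TPM (control) at 24 hpf against 3.72 TPM (rbm14) and 9.45 TPM (control) at 10 hpf. The last, cldng, had 9.02 TPM (rbm14) and 7.43 TPM (control) at 24 hpf against 5.47 TPM (rbm14) and 2.94 TPM (control) at 10 hpf, the smallest difference in TPM between stages among the 12 genes in either treatment.

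**Figure D2:**
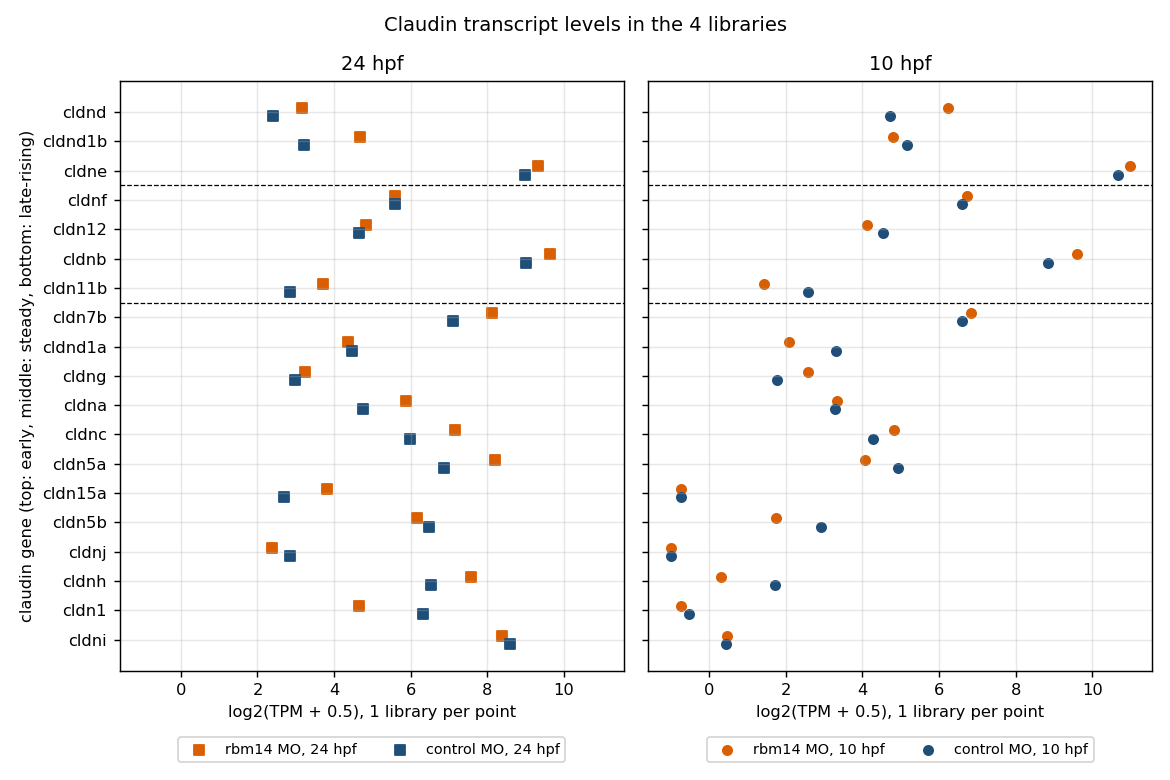
Levels of the 19 claudins with at least 5 TPM in any library, as log2(TPM + 0.5), with 24 hpf on the left and 10 hpf on the right, orange for rbm14 morpholinos (MO) and blue for control. Dashed lines divide early, steady and late-rising genes, and cldni, cldn1, cldnj and cldn15a sit near the low end of the axis at 10 hpf in both libraries.

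In the stage comparison of the rbm14 libraries 10 members passed the rule as higher and 3 as lower of 18 above the level. In that of the controls 12 were higher and 3 lower of 19. Over all genes above the level, 33.9% were higher and 23.2% lower in the rbm14 libraries, and 32.1% were higher and 21.9% lower in the controls. Higher genes thus made up 59.4% of all calls in either treatment, but 73.0% (rbm14) and 38.2% (control) without rescaling and 35.0% (rbm14) and 45.3% (control) with the median of ratios, while 10 or 11 claudins were higher in each treatment under both of these scalings. Of the members that reached 1 TPM in a library of the pair, the median log2 ratio was 1.94 in the rbm14 libraries (22 members) and 1.61 in the controls (24 members), while over all such genes it was 0.63 (rbm14) and 0.21 (control). Of the 12 late-rising members, 9 passed as higher in the rbm14 libraries, 2 lay between and none was lower. Those between were cldn7b (0.94) and cldng (0.33), and cldnj was under the level there. The share passing among all 2600 genes classed as late-rising was not computed, so this count is not read as particular to claudins. Among the 18 members above 0 in every library that also reached 5 TPM in one of them, the largest gaps between treatments in the stage ratio were those of cldn1, with 5.19 in the rbm14 and 7.16 in the control libraries, and of cldnh, with 6.98 (rbm14) and 5.30 (control). Neither gap could be tested. Across the 24 members with at least 1 TPM in any library, Spearman's rho of the levels between stages was 0.65 in the rbm14 and 0.59 in the control libraries, and between treatments it was 0.97 at both stages. Genes are not independent replicates, so this only describes the order of the levels.

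**Figure D3:**
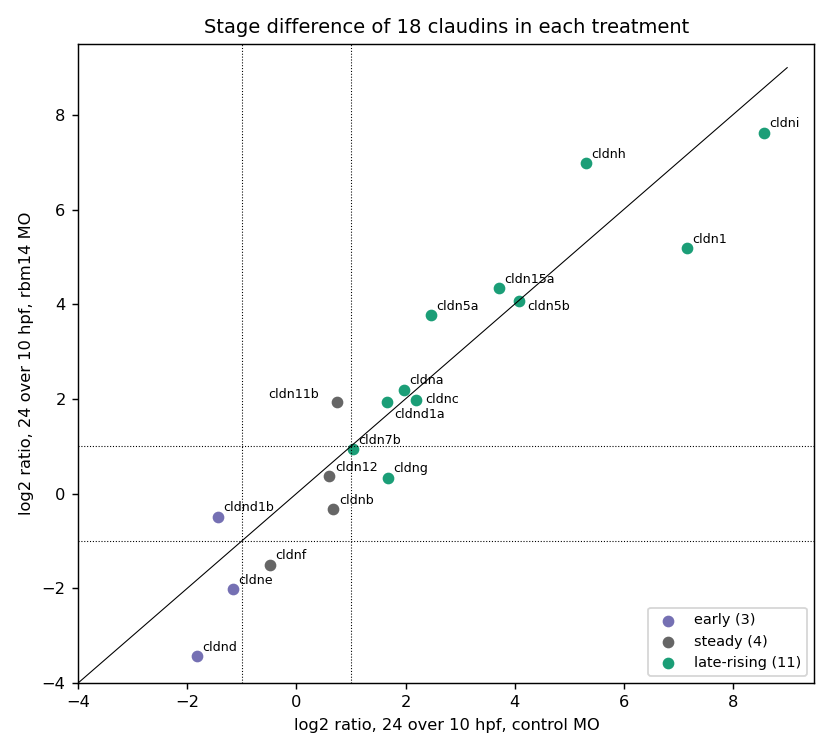
Log2 ratio of 24 over 10 hpf for 18 claudins in the rbm14 libraries (vertical) and the control libraries (horizontal), with the diagonal and dotted lines at 2-fold. The gene cldnj is left out because it was listed at 0 at 10 hpf, and cldn1 and cldni lie below the diagonal while cldnh and cldn5a lie above it.

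The 12 low members stayed under 5 TPM in every library, with a highest value of 4.2 TPM, and 7 of them never reached 1 TPM. After rescaling these members were also under 5 TPM in every comparison, so they are outside the size rule. The highest value was that of cldnk, the claudin of zebrafish myelin, with 4.20 TPM (rbm14) and 1.35 TPM (control) at 24 hpf. The gene cldn10b, whose mammalian homolog forms ion pores, had 3.87 TPM (rbm14) and 3.09 TPM (control) at 24 hpf. The gene cldn2, a homolog of a cation pore of mammalian kidney, had 2.64 TPM (rbm14) and 1.58 TPM (control), and cldn11a had 0.58 TPM (rbm14) and 2.36 TPM (control). The genes cldn10a and cldn15lb were listed at 0 in all libraries, which in an estimate of this kind need not mean absence. The remaining low members were cldn10l2, cldn15b, cldn15la, cldn17, cldn19 and cldn7a.

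At 10 hpf the rbm14 library was set against its control at the end of gastrulation. Of 14 members above the level, 3 (21.4%) were higher, 1 (7.14%) was lower and 10 lay between. Over all 7212 genes above the level, 3.79% were higher and 5.24% lower. Higher genes made up 41.9% of these calls, and 18.7% without rescaling or 69.3% with the median of ratios. The claudin median over 17 members with at least 1 TPM was −0.11, beside −0.06 over all such genes, with 8 members above 0 and 9 below. Without rescaling these medians were −0.36 and −0.29, and with the median of ratios 0.09 and 0.13. The claudin median was 0.27 with symbols in any case, without cldnd1a and cldnd1b, or with the most abundant transcript. With claudins under other symbols added it was 0.33, so its sign depends on these choices.

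The early gene cldnd, at 75.2 TPM in the rbm14 and 26.1 TPM in the control library, was 3.38-fold higher. It was the member farthest from its control at this stage and passed the rule under every scaling, pseudocount and level that was tried. The skin claudin cldnb, at 780.2 TPM (rbm14) and 462 TPM (control), was 2.01-fold higher and lay just past the threshold. Likewise cldng, at 5.47 TPM (rbm14) and 2.94 TPM (control), was 2.02-fold higher. Without rescaling the log2 ratios of cldnb and cldng were 0.75 and 0.80, so neither then passed. Both also fell short with a pseudocount of 5 TPM, and cldng did not pass at a level of 20 TPM. The lower member was cldnd1a, at 3.72 TPM in the rbm14 and 9.45 TPM in the control library (2.01-fold lower), which did not pass with the median of ratios, a pseudocount of 5 TPM or a level of 20 TPM. Short of the threshold stood cldnc among the higher (0.77) and, nearer to it, cldn5b (−0.94) and cldn11b (−0.92) among the lower. Without rescaling both cldn5b and cldn11b passed as lower.

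The 4 most abundant members at 10 hpf had ratios above 0 in the same library pair. These were cldne (0.55), cldnb, cldnf (0.39) and cldn7b (0.48), each also above 0 without rescaling. Among the late-rising members, cldn5a (−0.61), cldn5b, cldnd1a, cldnh (−1.23) and cldn1 (−0.17) had ratios below 0, with cldnh and cldn1 under the level. Of the 12, 6 had ratios above 0, the highest that of cldng (1.02), and cldnj was listed at 0 in both libraries. The class medians were 0.55 for the 3 early, 0.10 for the 4 steady and 0.02 for the 12 late-rising genes, and the late-rising ratios ran from −1.23 to 1.02. Since the classes were made with the same control library, these medians are a description only.

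Oocyte and maternal markers were set beside cldnd at 10 hpf. Of 10 above the level, 4 were higher in the rbm14 library, none was lower and 6 lay between, with 3.79% higher over all genes, and the 11 matched genes summed to 618 TPM in the rbm14 and 289 TPM in the control library, none at 0. The higher genes were the cyclin gene ccna1 (205 TPM in rbm14, 6.68 TPM in control), the egg envelope gene zp3b (177 TPM in rbm14, 55.8 TPM in control), the oocyte kinase gene wee2 (9.99 TPM in rbm14, 3.24 TPM in control) and cth1 (35.6 TPM in rbm14, 15.0 TPM in control). Among those between, the egg envelope genes zp2.1 (log2 ratio −0.72) and zp2.3 (−0.27) had ratios below 0. The part of these differences in that of cldnd was not tested. Enveloping layer and periderm markers summed to 32724 TPM (rbm14) and 33874 TPM (control), with none of 12 past the rule. Endothelial markers summed to 2.62 TPM (rbm14) and 4.96 TPM (control) at this stage, with cdh5, pecam1 and fli1a at 0 in the rbm14 library and pecam1 at 0 in the control.

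At 24 hpf the rescaled comparison gave no higher member, 2 lower and 17 between, of 19 above the level. Over all 8681 genes above the level, 6.27% were higher and 9.99% lower. The median over 24 members was −0.14, beside 0.08 over all such genes, with 11 members above 0 and 13 below. This stage depends on the scaling. Without rescaling 7 members were higher and 1 was lower, but then 90.8% of the calls over all genes were also higher, against 38.6% with the trimmed mean and 25.9% with the median of ratios. Unscaled, the 7 were cldn5a, cldnc, cldnd1b, cldn15a, cldna, cldnh and cldn7b, with log2 ratios from 1.02 to 1.46. The claudin median was then 0.46, and that of all genes 0.65. The most abundant members had rescaled ratios of 0.00 (cldnb) and −0.31 (cldne), which were 0.64 and 0.33 without rescaling, so no direction is given for them.

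The skin barrier gene cldn1 was the member farthest from its control. It stood at 24.8 TPM in the rbm14 and 79.3 TPM in the control library, 4.89-fold lower, and was lower under every scaling, pseudocount and level tried (log2 ratio −1.66 without rescaling). Its transcripts did not move equally. ENSDART00000058569 had 5.61 TPM in the rbm14 and 45.99 TPM in the control library, and ENSDART00000169097 had 19.2 TPM (rbm14) and 33.3 TPM (control). The more abundant transcript thus differed, with ENSDART00000169097 at 77.4% of the gene in the rbm14 library and ENSDART00000058569 at 58.0% in the control library. The ear gene cldnj, at 4.70 TPM (rbm14) and 6.74 TPM (control), was 2.09-fold lower. It did not pass without rescaling (log2 ratio −0.48), with a pseudocount of 5 TPM or at a level of 20 TPM. Short of the threshold stood cldn5b (−0.95) and cldni (−0.84) among the lower and cldnd1b (0.84) and cldn5a (0.69) among the higher. With the median of ratios cldn5b passed as lower (−1.09), while without rescaling its log2 ratio was −0.32.

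**Figure D4:**
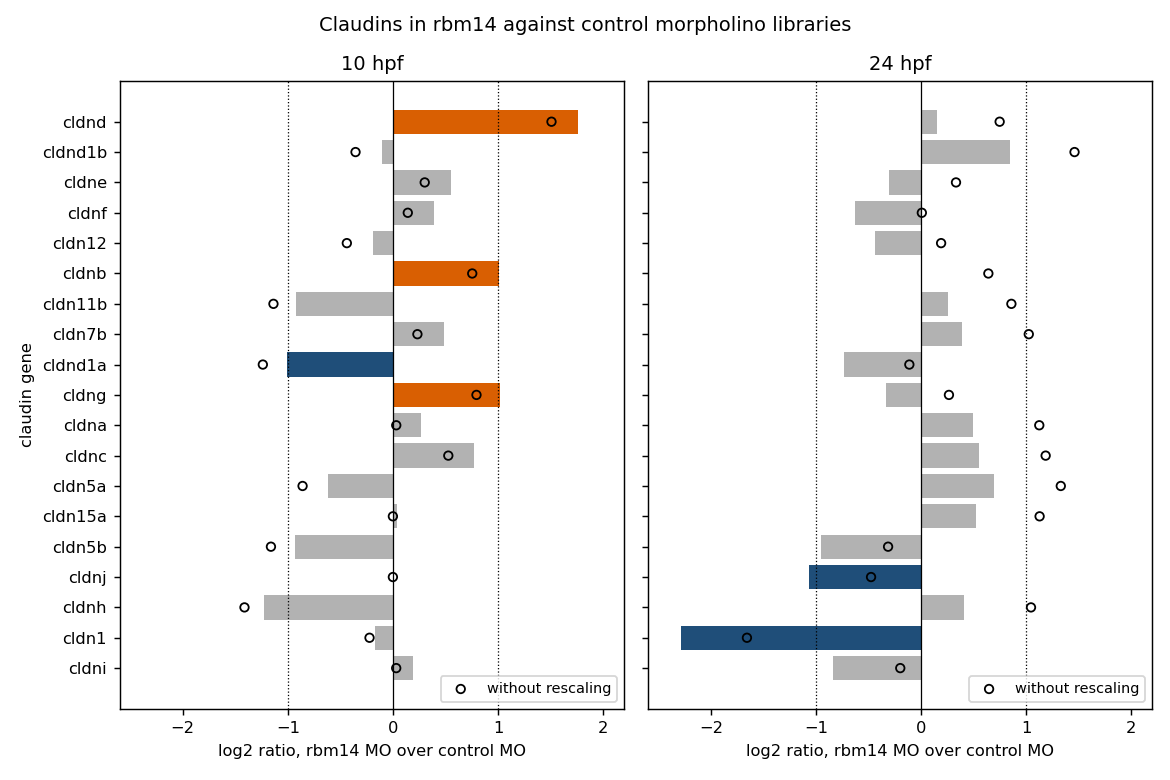
Log2 ratio of rbm14 over control morpholino (MO) libraries for 19 claudins at 10 hpf (left) and 24 hpf (right), as rescaled bars with open circles for the value without rescaling and dotted lines at 2-fold. Orange and blue bars passed the size rule as higher or lower, grey bars did not, and cldnj has no bar at 10 hpf because it was listed at 0 in both libraries.

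Ratios between members within a library are free of the scaling. The level of cldn5a was 4.13 times that of cldn5b in the rbm14 and 1.32 times in the control library at 24 hpf, and 5.72 times (rbm14) and 4.29 times (control) at 10 hpf. Thus cldn5a stood further above cldn5b with the rbm14 morpholinos at both stages. The ratio differed more between treatments at 24 hpf, although within the rbm14 libraries it was larger at 10 hpf. The 10 hpf ratios rest on low levels of cldn5b (2.86 TPM in rbm14, 7.01 TPM in control). For cldnd1a over cldnd1b the ratio was 0.80 in the rbm14 and 2.47 in the control library at 24 hpf, so the order of the pair differed between treatments, while at 10 hpf cldnd1b was the higher in both libraries (0.14 in rbm14, 0.27 in control). The ratio of cldn11a to cldn11b was 0.046 in the rbm14 and 0.35 in the control library at 24 hpf, and 0.27 (rbm14) and 0.36 (control) at 10 hpf. These ratios rest on low levels of cldn11a, at 24 hpf 0.58 TPM in the rbm14 and 2.36 TPM in the control library. The skin gene cldni made up 11.2% of claudin TPM in the rbm14 and 17.9% in the control library at 24 hpf, and cldn5a made up 9.74% (rbm14) and 5.42% (control).

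Marker sums in this paragraph are of TPM before rescaling, which subtracted 0.64 from the log2 ratios at 24 hpf. For the calls, made after rescaling, the shares over all genes above the level were 6.27% higher and 9.99% lower. Endothelial markers beside cldn5b at 24 hpf summed to 113 TPM in the rbm14 and 81.6 TPM in the control library, none at 0. Of 6 above the level, the receptor gene kdr was higher (6.79 TPM in rbm14, 0.91 TPM in control) and the receptor gene tek lower (5.45 TPM in rbm14, 8.52 TPM in control). The call of tek rests on the rescaling (log2 ratio −1.19), since its TPM before that step differed by less than 2-fold. Beside the skin claudins, enveloping layer and periderm markers summed to 61454 TPM (rbm14) and 44761 TPM (control) with 1 of 13 higher and 2 lower. The keratin gene krt18 had 4439 TPM (rbm14) and 964.5 TPM (control), while the epidermal genes icn and icn2 had lower levels, with icn at 456 TPM (rbm14) and 1030 TPM (control) and icn2 at 43.1 TPM (rbm14) and 160.3 TPM (control). The 11 otic markers summed to 418 TPM (rbm14) and 376 TPM (control). The largest values in these sums were those of dlx3b (176 TPM in rbm14, 105 TPM in control) and the matrix gene sparc (161 TPM in rbm14, 227 TPM in control). By the rule sparc was lower (log2 ratio −1.13), but before rescaling it differed by less than 2-fold. The other 5 of 6 above the level lay between, from 0.95 for oc90 to −0.71 for hmx2. Ionocyte markers summed to 233 TPM (rbm14) and 165 TPM (control) with slc12a10.2 at 0 in both libraries and none of 5 past the rule. Markers of day-1 tissues summed to 6075 TPM (rbm14) and 12994 TPM (control) over 9 genes with 1 of 8 higher and 6 lower. The higher gene was the neuronal gene elavl3 (78.5 TPM in rbm14, 23.9 TPM in control), and among the lower were the muscle gene mylpfb (62.4 TPM in rbm14, 213 TPM in control) and the globin genes hbae3 (1462 TPM in rbm14, 3809 TPM in control) and hbbe3 (1622 TPM in rbm14, 4316 TPM in control). After rescaling, the median log2 ratio was −0.01 for endothelial, −0.06 for enveloping layer and periderm and −0.16 for otic markers. It was −0.21 for ionocyte markers and −1.68 for markers of day-1 tissues. These medians are over genes with at least 1 TPM in a library of the pair. The part of these markers in the claudin values was not tested.

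Several members had more than 1 transcript in the deposited tables, namely 11 of the 31. For cldnf at 24 hpf, the main transcript ENSDART00000146094 had 27.7 TPM in the rbm14 and 40.6 TPM in the control library, and ENSDART00000157797 had 17.2 TPM (rbm14) and 2.68 TPM (control). Before rescaling, the summed TPM of cldnf was nearly the same in both 24 hpf libraries, as given above. After rescaling, its log2 ratio of rbm14 over control was −0.63. The ratio was −1.17 for ENSDART00000146094 and 1.90 for ENSDART00000157797. The main transcript took 58.1% (rbm14) and 85.5% (control) of cldnf at 24 hpf, against 76.5% (rbm14) and 80.95% (control) at 10 hpf. For cldn12 at 10 hpf, ENSDART00000168669 had 4.06 TPM (rbm14) and 10.5 TPM (control) while ENSDART00000025877 had 12.4 TPM (rbm14) and 11.9 TPM (control). The third, ENSDART00000128729, had 0.32 TPM (rbm14) and 0.55 TPM (control). For cldng, ENSDART00000142111 had 3.57 TPM (rbm14) and 1.12 TPM (control) at 24 hpf and was listed at 0 in both 10 hpf libraries. Shares among transcripts of a gene are the authors' estimates and carry no error here.

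Many claudins lie next to each other in the genome. In the RefSeq annotation of assembly GRCz12tu, which is not the build of the files and served only for names and gene order, all 31 members matched a claudin entry. A run of 4 neighbouring protein-coding genes holds cldnj, cldne, cldnf and cldna in that order. Its members cover every class above the low one, since cldnj and cldna were late-rising, cldne early and cldnf steady. A run of 7 neighbours holds cldnh, cldnc, cldnb and cldnd together with 3 other claudins. Of these, cldn29 and cldn30 have other symbols in the deposited values, and cldn28 matched no symbol there. Here too the classes were mixed, with cldnh and cldnc late-rising, cldnb steady and cldnd early. Reads that match several related copies can be divided between them by the authors' estimate, and this was not tested.

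The same annotation names 5 more claudins among the symbols of the files, and 5 symbols start with CLDN in capitals. None of them is a member, and those given here were chosen after their values were seen. The most abundant was si:ch211-95j8.2 (RefSeq cldn23.1), with 81.7 TPM in the rbm14 and 57.1 TPM in the control library at 24 hpf, against 333 TPM (rbm14) and 219 TPM (control) at 10 hpf, where the log2 ratio between treatments was 0.85. At 10 hpf this stood above every member except cldne and cldnb. It was lower at 24 than at 10 hpf, with a log2 ratio of −2.39 in the rbm14 and −1.41 in the control libraries. The symbol CLDN23 was also lower at 24 hpf, with 2.58 TPM (rbm14) and 1.45 TPM (control) against 17.1 TPM (rbm14) and 11.1 TPM (control) at 10 hpf. Neighbours in the run of 7, zgc:136892 (cldn30) and zgc:112437 (cldn29), were also present at 24 hpf. The level of zgc:136892 was 35.7 TPM (rbm14) and 24.4 TPM (control), and that of zgc:112437 was 6.43 TPM (rbm14) and 5.98 TPM (control). The symbol CLDN22 had 1.10 TPM in the rbm14 and 4.85 TPM in the control library at 24 hpf and was lower by the size rule (log2 ratio −2.25). It reached the level of 5 TPM only through the rescaling. In the other direction, CLDN20 (1 of many) had 8.92 TPM (rbm14) and 2.77 TPM (control) at 24 hpf. Its log2 ratio was 0.95, short of the rule, and 1.53 without rescaling.

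Partners of the claudins in the junction were followed through a list of genes. This list of scaffold proteins, other junction membrane proteins and apical polarity proteins had 60 names, of which 52 matched. In the stage comparison 11 of 29 above the level were higher and 6 lower in the rbm14 libraries, and 7 of 24 were higher and 5 lower in the controls. Over all genes above the level, 33.9% were higher and 23.2% lower in the rbm14 libraries, and 32.1% and 21.9% in the controls. The partner medians were 0.29 in the rbm14 libraries and −0.35 in the controls, beside 0.63 (rbm14) and 0.21 (control) over all genes. At 10 hpf 1 of 20 was higher and none lower in the rbm14 library (median −0.07, beside −0.06 over all genes). It was oclna, which encodes an occludin, at 63.4 TPM in the rbm14 and 30.2 TPM in the control library. At 24 hpf 2 of 26 were higher and none lower, with a median of 0.40 beside 0.08 over all genes. The higher genes were the junctional adhesion gene jam3b (34.9 TPM in rbm14, 10.1 TPM in control) and the Crumbs polarity gene crb2a (13.2 TPM in rbm14, 2.66 TPM in control). These rescaled counts are near the shares of all genes that were higher, 3.79% at 10 hpf and 6.27% at 24 hpf. Without rescaling 15 of the 52 matched partner genes passed the rule at 24 hpf, all of them as higher. Of all genes above the level, 27% were then higher and 2.74% lower. The number of partners above the level in that setting was not computed, so this count is not called near that share.

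Adherens junction and desmosome genes summed to 2725 TPM in the rbm14 and 2664 TPM in the control library at 10 hpf with none of 13 past the rule. At 24 hpf they summed to 1419 TPM (rbm14) and 945 TPM (control) with 1 of 14 higher, the plakophilin gene pkp1b (18.9 TPM in rbm14, 4.02 TPM in control). These sums are of TPM before rescaling, and the median rescaled log2 ratio of the list at 24 hpf was 0.26. Epithelial transcription regulators had none of 13 past the rule at 10 hpf and none of 14 at 24 hpf. Notochord markers had none of 5 past the rule at 10 hpf and at 24 hpf 1 of 7 lower, the matrix gene epyc (2.17 TPM in rbm14, 7.97 TPM in control). Pronephros markers had none of 2 past the rule at 10 hpf and at 24 hpf 1 of 7 higher, the regulator hnf1ba (17.4 TPM in rbm14, 4.89 TPM in control). Beside these 24 hpf counts, 6.27% of all genes above the level were higher and 9.99% lower. At 10 hpf these shares were 3.79% and 5.24%, so finding none past the rule is not read as a result about these short lists.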

How the data were processed

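Poly(A) RNA of whole embryos was sequenced, per the labels' protocols, with 1 library for each of 4 groups. The authors deposited TPM for 57596 Ensembl transcripts, a unit read from the values, which sum to 1000000 per library. The build GRCz10 and the tools HTSeq 0.6.1, HISAT2 2.0.1 and Trimmomatic 0.30 are named, per the submitters' processing notes, without a role. The annotation and whether counting used strand were not given in the sources used here. Since TPM holds no read counts, no depth, counting interval or detection limit was computed, and overlapping or antisense genes cannot be told apart.

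TPM was summed by symbol. For each pair, an unweighted trimmed mean of log2 ratios was taken over genes at or above 1 TPM in each of them, trimming 30% of ratios and 5% of levels at each end, and split evenly between the libraries. A pseudocount of 0.5 TPM followed. The size rule (2-fold, 5 TPM) replaced a test, and classes used the level as deposited. The code recovered a known shift and known changes in simulated data. Members with at least 5 TPM in any library are named, with up to 4 genes of each list past the rule in a knockdown comparison, rbm14a and rbm14b. Lists held 194 names, of which 179 matched by symbol, 4 by synonym and 11 did not match. Members and lists were chosen with earlier results of these data known. Alternatives covered scaling, pseudocount, level, transcripts and the member rule. Python 3.11.15, numpy 2.4.6 and pandas 2.3.3 were used.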

Additional observations from a re-analysis of the deposited data

How the results depend on the processing

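No paired analysis was possible because each group is 1 library and the labels give no replicate numbers. The depth is unknown, so how far depth limits low members cannot be stated. Beyond a factor of 1.5, the following values differed from those reported, and the cause was not tested. Without rescaling, 1 claudin was higher and 3 were lower at 10 hpf, 7 were higher and 1 was lower at 24 hpf with a median of 0.46, and 15 partner genes passed the rule at 24 hpf. Over all genes the share of calls that were higher was then 18.7% at 10 hpf and 90.8% at 24 hpf, against 41.9% and 38.6% with the trimmed mean. In the stage comparison it was 73.0% in the rbm14 and 38.2% in the control libraries, against 59.4% in both. With the median of ratios these shares were 69.3% at 10 hpf, 25.9% at 24 hpf, and between stages 35.0% in the rbm14 and 45.3% in the control libraries. That scaling gave 0 lower claudins and 2 partners at 10 hpf, and 5 lower claudins with a median of 1.31 between stages in the rbm14 libraries. At 24 hpf cldn12, cldnb, cldne, cldnf and cldng changed sign without rescaling, none of them past the rule. A pseudocount of 0.1 TPM gave 3 lower claudins at 10 hpf. A pseudocount of 5 TPM gave 1 higher and 0 lower at 10 hpf, 1 lower claudin and 0 partners at 24 hpf, and between stages a median of 0.89 with 10 partners in the rbm14 and a median of 0.83 with 6 partners in the control libraries. A level of 1 TPM gave 3 lower claudins and 3 partners at 10 hpf, 4 partners at 24 hpf, 7 low claudins, and a stage median of 0.94 in the rbm14 libraries with no minimum. A level of 20 TPM gave 0 lower claudins and a median of 0.48 at 10 hpf, 1 lower claudin and 1 partner at 24 hpf, and 5 partners between stages in both treatments. With the most abundant transcript 4 partners passed at 24 hpf. Among alternatives chosen after seeing the data, leaving out cldnd1a and cldnd1b gave 0 lower claudins at 10 hpf, and adding claudins under other symbols gave 5 lower between stages in the rbm14 libraries. Of the other counts, medians and classes, 155 values stayed within the factor.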
